A study of Mus musculus with 2 samples.

Results

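Cell cycle and proliferation genes were compared between splenic and lung regulatory T cells (Tregs) of bleomycin (BLM)-treated mice. The 46 genes were a list of known replication, G1/S and mitosis genes given by symbol, under a rule that used no measured value. The list was nevertheless chosen with earlier results of these data known. All 46 were present among the 24346 symbols listed in both libraries. Each library was made from GFP+CD4+ cells of Foxp3-DTR-GFP (FDG) mice, in which GFP is produced from the endogenous Foxp3 locus together with the diphtheria toxin receptor, so that GFP marks cells with Foxp3 transcription. The mice were 10 to 16 weeks old and had received 50 μg of intratracheal BLM, which injures the lung and leads to fibrosis. On day 15 cells were sorted from spleen and from BLM-injured lung, with 3 mice pooled for the single library of each tissue. Both libraries came from BLM-treated mice, so each comparison is between tissues and not with untreated animals. Since each tissue is a single library, differences could not be checked against replicates and p-values are not given.

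A cell that leaves rest copies its DNA in S phase and divides in mitosis. Transcription factors of the E2F family switch on genes for DNA replication as cells pass from G1 into S phase, and a later wave of genes, driven by B-Myb and FoxM1 bound to the MuvB complex, supplies the cyclins, kinases and motor proteins of mitosis. In resting cells both waves are held down by pocket proteins, and the promoters of late genes carry a short element called CHR, often next to CCAAT boxes. Tregs divide after encountering antigen and interleukin-2, and transcripts such as Mki67 and Top2a are commonly read as marks of cycling cells.

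Promoters are printed for 5 members, because they show the letters that distinguished the S phase from the mitosis members and because they stand for different patterns of expression. Mcm6 and Mki67 were within 2-fold between the tissues, Cks1b was over 2-fold higher in lung, and Plk1 and Aurka were listed at 0 in lung. The sequences are RefSeq promoters of GRCm38.p6, 250 bases before to 50 bases after the promoter's own start, written 5′ to 3′ on the gene's own strand. Positions are counted from that start, which differs from the gene coordinates given further below for Plk1, Aurka and Mki67. They lie at chr1:128359656-128359955 (Mcm6, minus strand), chr7:135716330-135716629 (Mki67, minus), chr3:89418242-89418541 (Cks1b, minus), chr7:122159185-122159484 (Plk1, plus) and chr2:172370521-172370820 (Aurka, minus). Capitals mark the letters TTTGAA (CHR), CCAAT, and TTTCCCGC or TTTGGCGC (E2F), each on either strand.
Mcm6: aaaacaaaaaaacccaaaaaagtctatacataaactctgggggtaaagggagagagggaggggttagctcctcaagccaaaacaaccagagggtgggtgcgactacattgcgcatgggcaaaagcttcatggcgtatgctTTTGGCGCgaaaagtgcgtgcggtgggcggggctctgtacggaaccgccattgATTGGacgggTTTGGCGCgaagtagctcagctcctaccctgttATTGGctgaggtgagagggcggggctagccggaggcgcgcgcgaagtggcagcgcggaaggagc
Mki67: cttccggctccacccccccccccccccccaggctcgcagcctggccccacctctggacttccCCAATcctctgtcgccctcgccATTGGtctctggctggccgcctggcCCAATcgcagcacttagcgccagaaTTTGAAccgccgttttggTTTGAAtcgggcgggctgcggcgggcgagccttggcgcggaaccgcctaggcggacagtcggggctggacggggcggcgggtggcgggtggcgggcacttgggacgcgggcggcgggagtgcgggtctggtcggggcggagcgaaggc
Cks1b: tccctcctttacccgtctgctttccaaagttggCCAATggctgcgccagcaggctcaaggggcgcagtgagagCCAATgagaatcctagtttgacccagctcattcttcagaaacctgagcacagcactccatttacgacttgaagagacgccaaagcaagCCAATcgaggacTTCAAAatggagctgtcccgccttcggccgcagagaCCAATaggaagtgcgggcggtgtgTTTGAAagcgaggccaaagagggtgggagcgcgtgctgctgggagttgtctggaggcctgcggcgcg
Plk1: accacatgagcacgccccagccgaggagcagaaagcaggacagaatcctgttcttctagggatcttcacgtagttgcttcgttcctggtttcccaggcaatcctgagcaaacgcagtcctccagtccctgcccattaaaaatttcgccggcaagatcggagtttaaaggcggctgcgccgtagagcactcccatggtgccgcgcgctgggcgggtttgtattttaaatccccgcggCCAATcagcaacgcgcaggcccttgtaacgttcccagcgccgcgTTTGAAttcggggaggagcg
Aurka: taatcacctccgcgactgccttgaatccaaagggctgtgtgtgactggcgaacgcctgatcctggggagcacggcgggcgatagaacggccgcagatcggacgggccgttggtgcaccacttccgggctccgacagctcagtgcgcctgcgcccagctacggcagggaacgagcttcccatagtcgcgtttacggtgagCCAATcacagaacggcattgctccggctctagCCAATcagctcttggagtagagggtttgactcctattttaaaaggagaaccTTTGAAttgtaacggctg

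In the Mcm6 promoter E2F letters began 110 and 47 bases before the start. The Plk1 promoter had a CCAAT box 14 bases before the start and CHR letters 31 bases after it, and Aurka was alike, with CCAAT boxes 51 and 19 bases before and CHR letters 33 bases after the start. Mki67 had CHR letters 116 and 98 bases before the start, and Cks1b 77 and 17 bases before it. A promoter was at hand for 36 of the 46 members. CHR letters were found in 14 of 20 mitosis members (70%) and 2 of 16 G1/S and S phase members (12.5%), against 17.9% of all 32851 promoters of the same length. CCAAT was found in 18 of 20 (90%) and 10 of 16 (62.5%), against 37.4% of all promoters. E2F letters were found in 0 of 20 mitosis members and 7 of 16 G1/S and S phase members (43.8%), namely Cdc6, Cdt1, Cdk2, Mcm3, Mcm5, Mcm6 and Mcm7, against 1.56% of all promoters. Between the tissues, CHR letters were present in 2 of 9 members over 2-fold higher in lung (Cdc45 and Cks1b), 3 of 5 members over 2-fold lower (Plk1, Aurka and Kif23) and 11 of 22 members within 2-fold. A match of letters is a description and not a bound site.

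Expression was given as FPKM, which divides a gene's fragments by its length and by the size of the library, so that levels can be set side by side between genes. FPKM summed to 599633 in spleen and 808853 in lung, and 9542 and 10638 symbols were listed at 0. Read numbers were estimated from the spacing of low values, and they came to 9647269 in spleen and 12631701 in lung. They are approximate, and the 95% intervals drawn from them (Clopper-Pearson) cover counting error only, since copies made by PCR are counted separately. Defining markers of the sort were present, with Foxp3 at 18.7 FPKM in spleen and 41.8 in lung, Cd4 at 195 and 179, and Cd3e at 513 and 369. Ratios are of lung to spleen, and genes were called higher or lower past 2-fold. For calls, medians and log2 ratios, values under 0.1 FPKM were set to 0.1 in both. The folds printed for single genes above 0 in both libraries, and their intervals, are without that floor.

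Of the 46 members, 10 were over 2-fold higher in lung, 10 over 2-fold lower and 26 within 2-fold. Among all listed genes 11% were called higher and 11.7% lower, and among the 11421 genes with a mean of at least 1 FPKM 16% were higher and 13.7% lower. For the 39 members at that level the numbers were 9 higher and 5 lower. The median log2 ratio of the members was 0.02, against 0 over all listed genes and 0.03 over genes with a mean of at least 1 FPKM, and it was 0.02 also when each library was credited with no fewer than 3 reads for every gene. None of the members exceeded 20-fold higher, and 4 (Plk1, Aurka, Aurkb and Kif23) were past 20-fold lower at the floor of 0.1 FPKM, which lies below the limit of 3 lung reads for Plk1, Aurka and Aurkb. Over all 24346 listed genes, 395 were over 20-fold higher and 284 over 20-fold lower. At 2-fold the list therefore held as many higher as lower genes, but over 4-fold 2 of the 46 members were higher and 9 lower. Among genes with a mean of at least 1 FPKM, 8.38% were over 4-fold higher and 5.03% lower. Cdc6, Cdc25c, Foxm1 and Nusap1, among the 9 lower members, have means below that level, so the counts and shares are not for like levels. Of the 27 mitosis members 7 were higher and 8 lower at 2-fold, and of the 19 G1/S and S phase members 3 and 2. In bulk libraries, a difference in the number of cycling cells and one in RNA per cycling cell cannot be told apart.

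**Figure D1:**
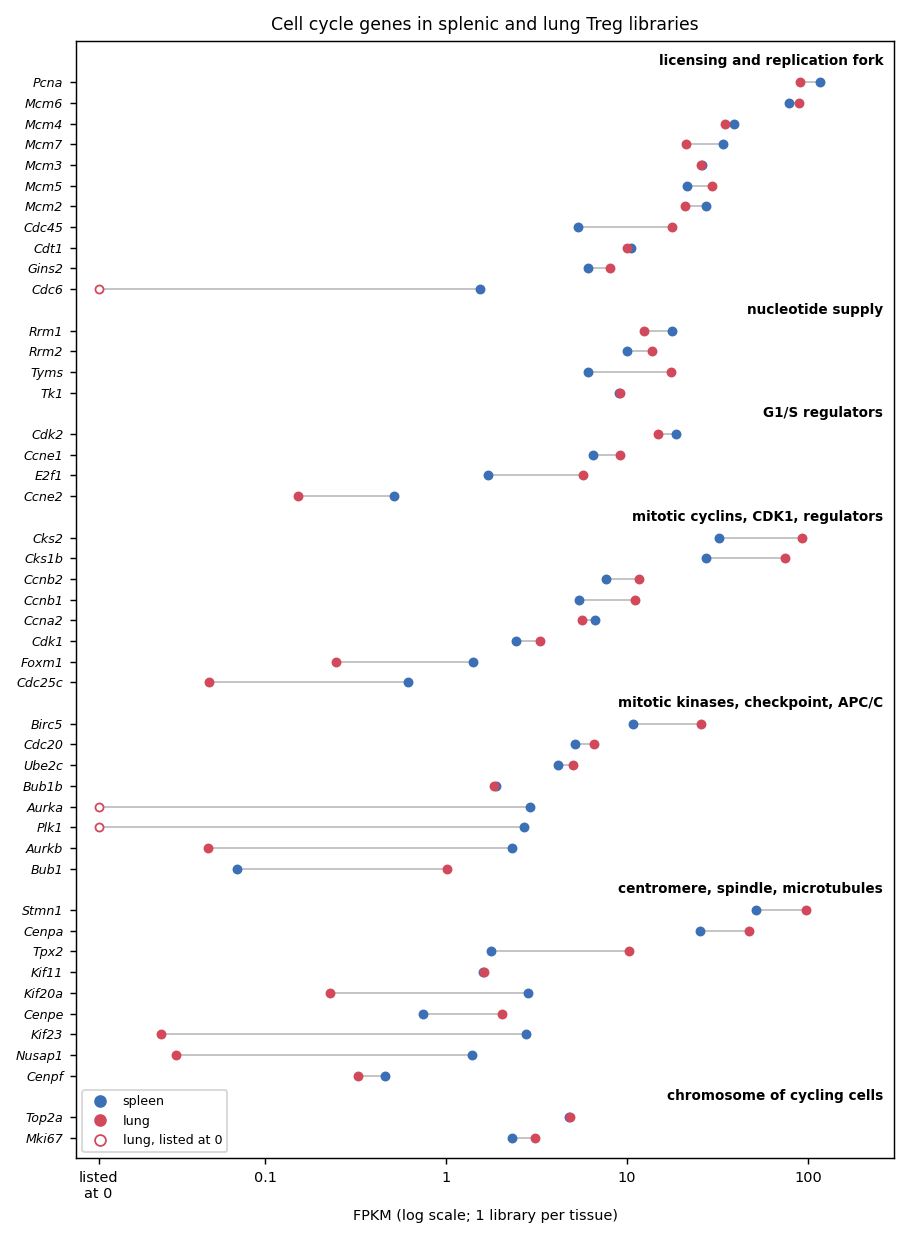
FPKM (log scale) of each of the 46 members in the splenic (blue) and lung (red) library, 1 library per tissue, grouped by role and ordered by level. Open circles mark Cdc6, Plk1 and Aurka, which were listed at 0 in lung, and the MCM genes and Pcna lie close together in both tissues.

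The scaling between libraries moved these counts. With both libraries rescaled to TPM, which shifts log2 ratios by -0.43 where the floor is not reached, 8 members were higher and 11 lower, while 11.4% and 24.6% of genes with a mean of at least 1 FPKM were called. With the libraries scaled to a median ratio of 1 over 10 T cell genes, which shifts them by 0.18, 12 members were higher and 10 lower, while 19.4% and 10.9% of those genes were called. The members' median became -0.41 with TPM and 0.20 with the T cell scaling, so its sign depended on the scaling.

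Shares within a library do not depend on that scaling. The 19 G1/S and S phase members summed to 436 FPKM in spleen and 430.1 in lung, which is 67.6% of the summed member FPKM in spleen and 51.4% in lung. The 27 mitosis members, Mki67 and Top2a included, summed to 209 FPKM in spleen and 407 in lung, or 32.4% and 48.6%. Thus mitosis transcripts made up more of the members' total in lung. Cks1b, Cks2, Cenpa and Stmn1, all with short transcripts, held most of the mitosis sum in both libraries. By gene, the 27 mitosis members had 7 higher, 8 lower and 12 within 2-fold, with a median log2 ratio of 0.29, which turned to -0.14 with TPM. The 19 S phase members had 3 higher and 2 lower, with a median of -0.02, which turned to 0.15 with the T cell scaling.

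Genes of replication licensing and the replication fork had the highest summed FPKM of the role groups, 366 in spleen and 347 in lung, and 9 of 11 were within 2-fold. Mcm2 to Mcm7 encode the subunits of the helicase that unwinds DNA at replication origins, and all 6 were within 2-fold. Mcm6 was the highest of them, at 78.2 FPKM in spleen and 89.5 in lung, followed by Mcm4 at 38.9 and 34.7. Mcm7 was at 33.9 and 21.3 FPKM, Mcm2 at 27.4 and 20.8, Mcm3 at 26.0 and 25.6, and Mcm5 at 21.3 and 29.4. Together the 6 genes summed to 226 FPKM in spleen and 221 in lung, and with TPM 1 of them, Mcm7, passed 2-fold lower. The exons of Mcm7 share 12.6% of their bases with neighbours such as Ap4m1 and Cops6 on the opposite strand, and the libraries are not stated to keep strand. Within the complex the proportions were not equal in the tissues, since Mcm6 was 2.86 times Mcm2 in spleen and 4.30 times in lung.

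Pcna, the sliding clamp of DNA polymerases, had 117 FPKM in spleen and 90.3 in lung, and was the highest member in spleen. Cdt1, which loads the helicase, was at 10.5 and 9.94 FPKM. Gins2, a subunit of the active helicase, was at 6.04 and 8.09 FPKM, but 67.3% of its exon bases lie under Gse1 on the opposite strand, so the source of these reads is uncertain. Cdc45, which joins the MCM ring and GINS in the active helicase, had 5.32 FPKM in spleen and 17.8 in lung, 3.35-fold higher (counting interval 2.66 to 4.23, from 95.8 and 364 estimated reads). Cdc6, which recruits the helicase to origins, was at 1.54 FPKM in spleen, about 53.9 reads, and listed at 0 in lung, where a count of 0 allows up to 0.0754 FPKM (3 reads). At that limit it was 20.4-fold lower, and the counting interval of both libraries gave at least 16.1-fold. The 2 loading factors thus differed, with Cdt1 within 2-fold and Cdc6 seen in spleen alone.

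Nucleotide supply had 1 gene over 2-fold higher and none lower among its 4 members. Tyms, thymidylate synthase, had 6.10 FPKM in spleen and 17.5 in lung, 2.87-fold higher (2.43 to 3.40). The gene Tyms-ps, a copy listed separately, was at 0 and 0.522 FPKM. Rrm1 and Rrm2 encode the large and small subunit of ribonucleotide reductase. Rrm1 had 17.7 FPKM in spleen and 12.4 in lung, whereas Rrm2, the subunit whose level follows S phase, was at 10.03 and 13.7, and the ratio of Rrm1 to Rrm2 was 1.76 in spleen and 0.908 in lung. Tk1, thymidine kinase, was at 9.06 and 9.15 FPKM.

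Among the regulators of entry into S phase, E2f1, an activating E2F factor, had 1.70 FPKM in spleen and 5.74 in lung, 3.38-fold higher (2.40 to 4.76). Ccne1 and Ccne2 encode E cyclins, partners of the kinase Cdk2. Ccne1 had 6.46 FPKM in spleen and 9.19 in lung, and Cdk2 at 18.6 and 14.9. Ccne2 was the lowest of the group at 0.514 and 0.151 FPKM, 3.41-fold lower in lung (1.18 to 12.0, from 14.9 and 4.97 reads), and 17.4% of its exon bases overlap Ints8 on the opposite strand. E cyclin expression was therefore mainly Ccne1 in both libraries.

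Of the mitotic cyclins, their kinase and its regulators, Cks2 and Cks1b had the highest lung values, exceeded among the mitosis members by Stmn1 alone. Cks1b and Cks2 encode small proteins that bind cyclin-dependent kinases. Cks2 had 32.2 FPKM in spleen and 92.7 in lung, 2.88-fold higher (2.41 to 3.46), and stood at percentile 79.1 and 90.6 among genes above 0 in its library. Cks1b was at 27.2 and 74.8 FPKM, 2.74-fold higher (2.31 to 3.26). Cks2 to Cks1b was 1.18 in spleen and 1.24 in lung, so both genes differed by nearly the same factor. The copy Cks1brt was listed at 0 in both libraries.

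Ccnb1, a B cyclin that activates Cdk1, had 5.40 FPKM in spleen and 11.0 in lung, 2.05-fold higher (1.65 to 2.53), just past the threshold, and 1.52-fold with TPM. Ccnb2, the other B cyclin, was at 7.60 and 11.6 FPKM, and Cdk1, the mitotic kinase, at 2.44 and 3.30. Ccna2, cyclin A2, was at 6.67 and 5.65 FPKM, with 12.5% of its exon bases overlapping Exosc9. None of these 3 passed 2-fold, while Foxm1 and Cdc25c, which act upstream of mitosis, were lower in lung. Foxm1, a transcription factor of late cell cycle genes, had 1.42 FPKM in spleen and 0.245 in lung, 5.77-fold lower (3.10 to 11.2). Cdc25c, a phosphatase that activates Cdk1, was at 0.612 and 0.0490 FPKM, from about 11.0 reads in spleen and 1 in lung, 12.5-fold lower with a counting interval of 1.82 to 538, and 12.7% of its exon bases overlap another gene.

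The mitotic kinases Plk1, Aurka and Aurkb were near or at 0 in lung. Plk1, polo-like kinase, was at 2.71 FPKM in spleen from about 55.9 reads and listed at 0 in lung, 21.1-fold lower at the limit of 3 reads and at least 16.7-fold by the counting interval. Aurka, Aurora kinase A of the spindle poles, was at 2.91 FPKM from 50.6 reads and listed at 0, 19.1-fold lower at that limit and at least 15.1-fold by the interval. Aurkb, Aurora kinase B of the chromosomal passenger complex, had 2.32 FPKM in spleen and 0.0486 in lung, 41.8 reads against 0.996, 47.7-fold lower (8.10 to 1928). Plk1 lies on chromosome 7 at 122159439 to 122169873 (plus strand), Aurka on chromosome 2 at 172356190 to 172370535 (minus) and Aurkb on chromosome 11 at 69045647 to 69051664 (plus) of GRCm38, and overlapped exon bases were 7.09% for Plk1 and 0 for both Aurora genes. Birc5, survivin, is a partner of Aurora B in the same complex. It had 10.7 FPKM in spleen and 25.6 in lung, 2.38-fold higher (2.04 to 2.80), so that the ratio of Birc5 to Aurkb was 4.64 in spleen and 527 in lung, the latter resting on about 1 read of Aurkb.

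Checkpoint and anaphase genes were above 0 in both libraries. Bub1, a checkpoint kinase at kinetochores, was at 0.0701 FPKM in spleen, about 2.34 reads, and 1.01 in lung, 38.1 reads, 14.4-fold higher with a wide counting interval of 4.32 to 143. Bub1b, its checkpoint relative BubR1, was at 1.90 and 1.84 FPKM. Cdc20, which activates the anaphase-promoting complex, was at 5.14 and 6.52 FPKM, and Ube2c, the ubiquitin-conjugating enzyme of that complex, at 4.14 and 5.05, with 22.8% of its exon bases overlapping Tnnc2. These last 3 genes were within 2-fold, and in splenic FPKM Cdc20 and Ube2c lay above Plk1 and Aurka while Bub1b lay below them.

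Among the 9 centromere, spindle and microtubule genes 2 were over 2-fold higher, 3 over 2-fold lower and 4 within 2-fold. Tpx2, which builds spindle microtubules and activates Aurora A, had 1.78 FPKM in spleen and 10.3 in lung, 5.77-fold higher (4.51 to 7.44) and stood at percentile 31.4 and 53.8. Its partner Aurka was listed at 0 in the same lung library. Cenpe, a kinetochore motor, was at 0.748 and 2.04 FPKM, 2.73-fold higher (2.02 to 3.70). Kif23 and Kif20a are motors of the central spindle, which takes part in the separation of the daughter cells. Kif23 had 2.76 FPKM in spleen and 0.0264 in lung, about 91.2 reads against 0.992, 104-fold lower (18.1 to 4125). Kif20a was at 2.84 and 0.227 FPKM, 12.5-fold lower (5.92 to 29.2), and 29.3% of its exon bases overlap Cdc23. Nusap1, a spindle-associated protein, was at 1.38 FPKM and 0.0320, 43.5 reads against 1.14, 43.2-fold lower (8.51 to 2017).

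Stmn1, stathmin, which takes microtubules apart, was the highest member in lung, at 97.8 FPKM against 51.6 in spleen, 1.89-fold. Cenpa, the histone variant of centromeres, was at 25.2 and 47.3 FPKM, 1.88-fold. Both lay just under the threshold and passed it with the T cell scaling. Kif11, the motor that separates spindle poles, was at 1.59 and 1.62 FPKM, and Cenpf, a large kinetochore protein, at 0.460 and 0.327.

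The usual marks of cycling cells were within 2-fold. Mki67, which coats mitotic chromosomes, had 2.30 FPKM in spleen and 3.11 in lung, a ratio of 1.35 (1.14 to 1.60, from 235 and 361 reads) and a log2 ratio of 0.44, which became 0.0044 with TPM and 0.61 with the T cell scaling. Top2a, topoisomerase II alpha, was at 4.76 and 4.82 FPKM, a ratio of 1.01 (0.851 to 1.21), and its log2 ratio of 0.02 turned to -0.41 with TPM. Ranked among genes above 0 in its library, Mki67 stood at percentile 34.1 in spleen and 31.3 in lung, and Pcna at 94.4 and 90.4. Mki67 lies on the minus strand of chromosome 7 at 135689784 to 135716361 of GRCm38, and its exons overlap no other gene.

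The lower calls lay among the members of low level. Of the 11 members with a mean of at least 20 FPKM, 2 (Cks1b and Cks2) were higher and 0 lower, against 10.3% and 4.49% of all genes at that level. Of the 15 members at 5 to 20 FPKM, 5 (Cdc45, Tyms, Ccnb1, Birc5 and Tpx2) were higher and 0 lower, against 12% and 15.2%. Of the 13 members at 1 to 5 FPKM, 2 (E2f1 and Cenpe) were higher and 5 (Plk1, Aurka, Aurkb, Kif20a and Kif23) lower, against 30.4% and 25.6%. The remaining 7 members, under 1 FPKM, had 1 higher (Bub1) and 5 lower (Cdc6, Ccne2, Cdc25c, Foxm1 and Nusap1), against 35.3% and 45.1% of all genes with a mean of 0.25 to 1 FPKM. All 10 lower members thus had a mean under 5 FPKM. Among genes with a mean of 0.25 to 5 FPKM, 3 of 20 members were listed at 0 in lung alone, against 13.4% of all genes, and 0 of 20 were listed at 0 in spleen alone, against 8.25%.

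**Figure D2:**
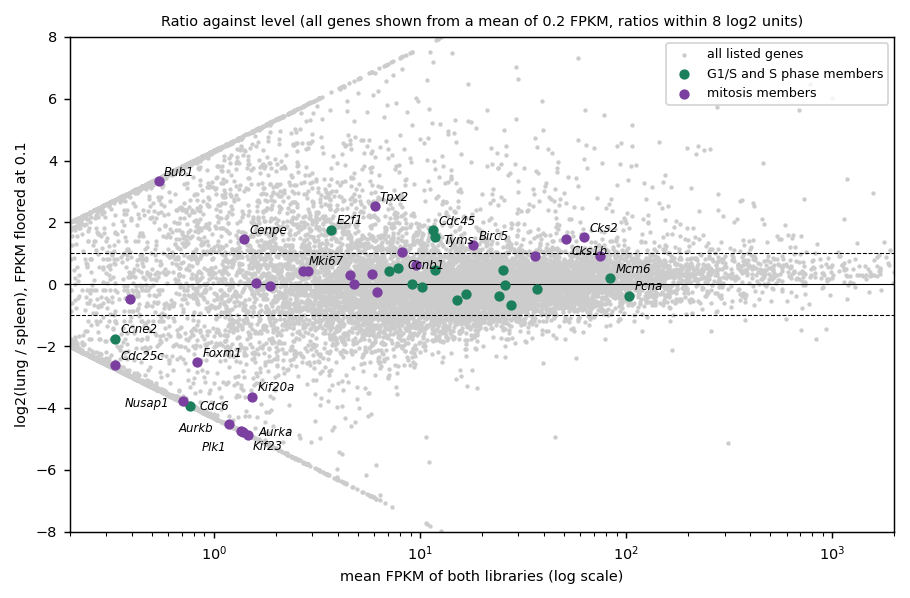
Log2 ratio of lung to spleen (FPKM floored at 0.1) against the mean FPKM of both libraries (log scale), with all listed genes in grey, G1/S and S phase members in green and mitosis members in purple, and dashed lines at 2-fold. The lower members lie at the left, under a mean of 5 FPKM, where the grey points also spread the most.

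Transcript length moved with the ratio over the whole table. Genes with transcripts of up to 1000 nt had a median log2 ratio of 0.52 and those over 4000 nt of -0.24, with 0.27, 0.02 and -0.17 in the ranges between. Cks2 (692 nt), Cks1b (849 nt), Cenpa (918 nt) and Ube2c (967 nt) were the members of up to 1000 nt. Relative to genes of like length, the log2 ratio was 1.01 for Cks2 and 0.94 for Cks1b, which then lay under 2-fold, 0.39 for Cenpa and 0.65 for Stmn1 (1060 nt), and Mki67, one of the longest transcripts at 10061 nt, was at 0.68. By the same measure 9 members were higher and 10 lower, a setting added after the values had been seen. The part of transcript length in the share held by mitosis members was not tested.

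**Figure D3:**
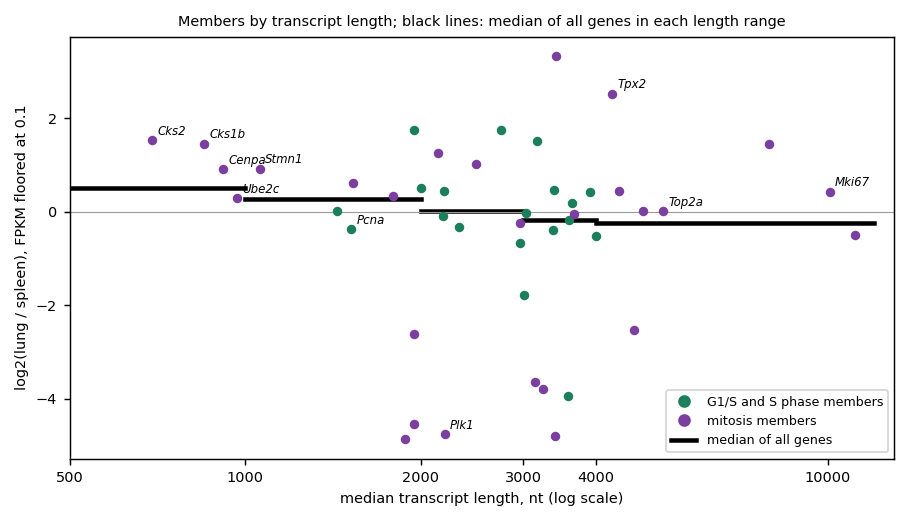
Log2 ratio of lung to spleen (FPKM floored at 0.1) of each member against its median transcript length in nt (log scale), with G1/S and S phase members in green, mitosis members in purple and black lines at the median of all genes in each length range. The 4 shortest members, Cks2, Cks1b, Cenpa and Ube2c, lie in the range with the highest median, 0.52.

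Cell cycle genes outside the members, from lists of the same kind, also had calls in both directions. Of 30 further S phase genes 3 were higher and 7 lower, with a median log2 ratio of 0.01. Of 46 further mitosis genes 9 were higher and 12 lower, with a median of 0.07. Among all listed genes 11% were higher and 11.7% lower, and among those with a mean of 1 to 5 FPKM 30.4% and 25.6%. Both medians turned negative with TPM, the first also with a median ratio of 1 and with equal upper quartiles. Gins1, a partner of Gins2, had 2.63 FPKM in spleen and 12.9 in lung. Gmnn, geminin, which blocks Cdt1, was at 22.3 and 54.0, so that Gmnn to Cdt1 was 2.13 in spleen and 5.44 in lung. These 2 genes differ in length, with Gmnn (963 nt) in the range with a median log2 ratio of 0.52 and Cdt1 (2189 nt) in that of 0.02. Prim2, a primase subunit, was at 6.87 FPKM in spleen and Mcm10, a replication initiation factor, at 0.939, and both were listed at 0 in lung. In mitosis, the checkpoint kinase Ttk was at 0.308 and 2.48 FPKM and the kinesin Kif2c at 0.560 and 2.92, while Gtse1 (1.13 FPKM in spleen) and the kinetochore gene Nuf2 (1.05 FPKM in spleen) were listed at 0 in lung. Of these further genes, 9 of 44 with a mean of 0.25 to 5 FPKM were listed at 0 in lung alone and 0 of 44 in spleen alone. The shares of all genes at that level were 13.4% and 8.25%. The most abundant in both libraries was H2afz, a histone variant, at 762 FPKM in spleen and 1428 in lung, followed in spleen by Smc4, of condensin, at 183 and 123, and in lung by Pttg1, securin, at 115 and 149.

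The factors that hold back or drive these waves were mostly within 2-fold. Of 16 MuvB, pocket protein and E2F genes 0 were higher and 2 lower, which became 3 lower with TPM and 1 higher and 1 lower with the T cell scaling. Among all listed genes 11% were higher and 11.7% lower. Mybl2, which encodes B-Myb, had 1.10 FPKM in spleen and 0.0486 in lung, about 39.4 reads against 1.97, 22.7-fold lower (5.73 to 189), and Lin9, of MuvB, at 5.10 and 2.36. Rbl2, a pocket protein of resting cells, was at 38.6 and 37.5 FPKM, and E2f4, its usual partner, at 61.3 and 51.4. The genes of B-Myb and FoxM1, the activators of the mitotic wave, were thus both called lower in lung, each from under 1.5 FPKM in spleen. At a mean of 0.25 to 1 FPKM, however, 45.1% of all genes were called lower. Foxm1 kept its call in 9 of 11 settings.

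The list of D cyclins, their kinases and CDK inhibitors, chosen like the others with results of these data known, had 4 of 12 genes higher and 0 lower. All 4 are inhibitors and were named after their values had been seen. Of all genes with a mean of 1 to 5 FPKM, the level of Cdkn2b and Cdkn1c, 30.4% were called higher. The share was 12% at 5 to 20 FPKM (Cdkn2c) and 10.3% from 20 FPKM (Cdkn1a). Cdkn1a, the p53 target p21, had 3.29 FPKM in spleen and 70.7 in lung, 21.5-fold higher. Cdkn2b was at 0.570 and 4.02 FPKM, Cdkn2c at 2.07 and 13.9, and Cdkn1c at 1.37 and 5.66, while Cdkn2a was listed at 0 in both. Cdkn1b, the p27 inhibitor, was at 14.6 and 11.7 FPKM, and Cdkn2d at 88.1 and 108. Among the cyclins and kinases that the inhibitors act on, Ccnd2 was at 105 and 80.8 FPKM, Ccnd3 at 110.2 and 103, and Cdk4 at 128 and 67.7, which passed 2-fold lower with TPM. These 4 inhibitor genes were called higher under every scaling tried, in the library in which the MCM genes were within 2-fold of spleen as deposited.

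**Figure D4:**
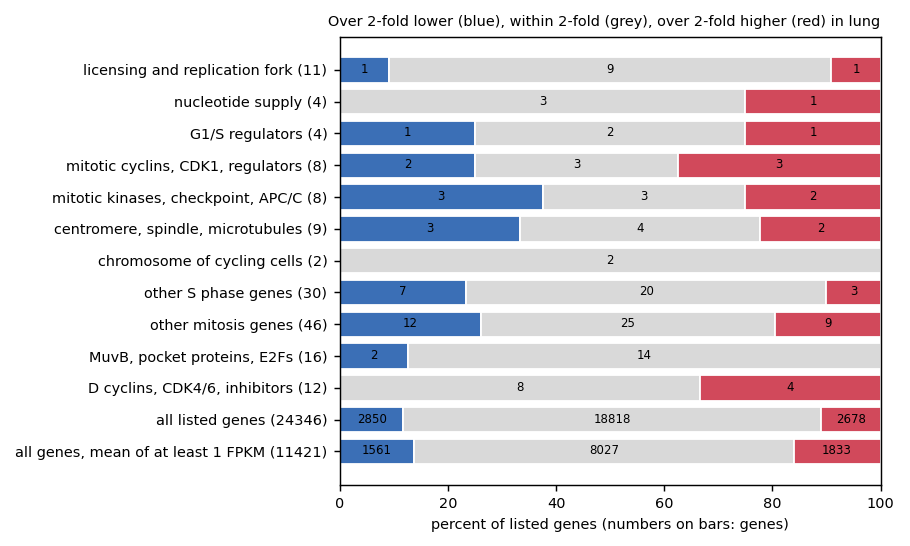
Percent of genes over 2-fold lower (blue), within 2-fold (grey) and over 2-fold higher (red) in lung for each role group, other lists and all genes, with the number of genes on the bars and in parentheses. The 4 higher genes among D cyclins, CDK4/6 and inhibitors stand beside 0 lower ones, and Mki67 and Top2a, the chromosome of cycling cells group, are both within 2-fold.

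Markers of other cells were present in both libraries, and some of these cells divide. The 10 T cell genes were all within 2-fold, with sums of 4914 FPKM in spleen and 4686 in lung. Of 6 Treg genes 2 (Foxp3 and Ctla4) were higher and 1 (Lrrc32) lower, with sums of 911 and 1693 FPKM, and 8 reference genes such as Actb were all within 2-fold, with a median log2 ratio of 0.39. Of 12 macrophage genes 9 were higher in lung, with sums of 673 and 26380.4 FPKM, of which Lyz2 made up most, and of 8 lung stromal and epithelial genes 7 were higher, with sums of 10.5 and 3136. Of 7 B cell genes 0 were higher and 3 lower, with sums of 256 and 135 FPKM, and of 6 germinal centre and plasmablast genes 2 (Sdc1 and Prdm1) were higher and 1 (Mzb1) lower, with sums of 108 and 74.7 and Mybl1, which was within 2-fold at the floor, listed at 0 in lung. Of 7 genes of erythroid precursors, which divide often, 6 were lower in lung, with sums of 52.6 and 14.9, and Klf1, Hba-a1, Car1 and Epor were listed at 0 there. Gata1, the gene of that list within 2-fold, was at 19.9 and 13.8 FPKM and made up most of the lung sum. Of 6 neutrophil genes 2 (S100a8 and S100a9) were higher and 3 lower, with sums of 399.9 and 1133 FPKM, and the 3 lower genes, Elane, Mpo and Prtn3 of dividing precursors, were listed at 0 in lung, as was Ctsg in both libraries. Of 6 CD8 and NK cell genes 2 (Cd8a and Cd8b1) were higher and 2 (Ncr1 and Eomes) lower, with sums of 46.0 and 112 FPKM and Ncr1 listed at 0 in lung. Most erythroid genes, and 3 of the neutrophil genes, were therefore lower in the library in which Plk1, Aurka, Aurkb and Kif23 were lower, while S100a8 and S100a9 were higher there. The part of these other cells in the values of the cell cycle genes was not tested.

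**Figure D5:**
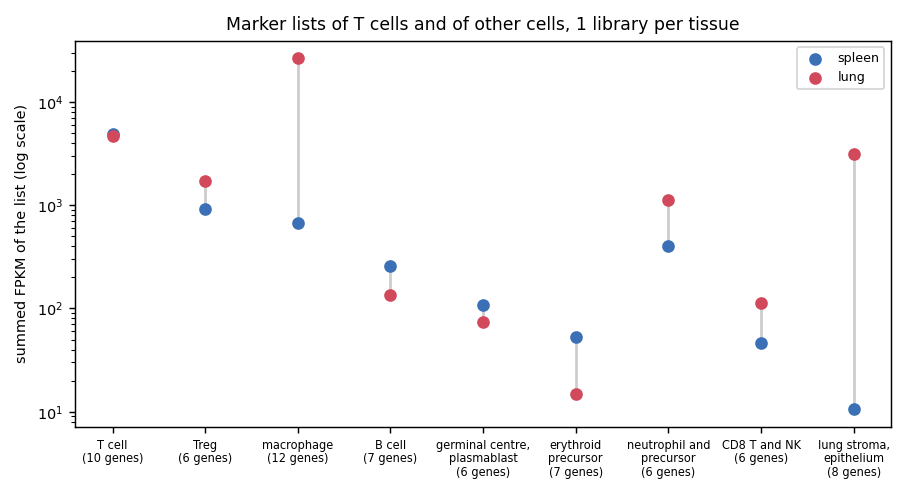
Summed FPKM (log scale) of marker lists of T cells, Tregs and other cells in the splenic (blue) and lung (red) library, with the number of genes in parentheses. T cell sums are close together (4914 and 4686), macrophage and lung stromal or epithelial sums are higher in lung, and the erythroid precursor sum is lower (52.6 and 14.9). Most of that lung sum is Gata1 (13.8).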

How the data were processed

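Bulk RNA-seq of GFP+CD4+ cells of FDG mice, pooled from 3 mice on day 15 after BLM, was analysed with 1 library per tissue, grouped by the labels. SMART-Seq HT cDNA and Nextera XT libraries gave single-end reads of 75 bases. Per the labels and methods, the authors aligned to mm10 using Bowtie2 2.2.8 within TopHat2 2.1.1, used SAMtools 0.1.18, and deposited FPKM as Cuffdiff 2.2.1 gave them. The annotation and the scaling between libraries are not given in the sources used here.

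Calls, medians and log2 ratios of lung to spleen were formed from FPKM floored at 0.1, with 2-fold as a rule of size. Folds printed for single genes above 0 in both libraries were formed without the floor. Reads were estimated by multiplying FPKM by the effective length of GENCODE M21 transcripts tied to RefSeq (fragment mean 200, SD 80, shortest 75), found for 23016 of 24346 symbols and all 46 members. Among 2014 splenic and 1207 lung genes with 1 to 10 such reads, 73.0% and 75.1% came within 0.1 of a whole number. Genes at 0 were bounded with 3 reads. Amplification by PCR without molecular identifiers means that reads are not independent molecules. The members and lists were chosen with earlier results of these data known. A few genes outside the members are not reported here. Every member could be named, and of the other lists the 4 highest genes, the 2 highest and 2 lowest ratios, markers at 0, and Foxp3, Cd4 and Cd3e. Floors, pseudocounts, scalings, filters, fold limits, transcript length and a 3-read minimum were tried as alternatives. The steps were tested on simulated data. Versions were matplotlib 3.10.9, scipy 1.17.1, pandas 2.3.3 and numpy 2.4.6 under Python 3.11.15.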

Additional observations from a re-analysis of the deposited data

How the results depend on the processing

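With 1 library per tissue these settings show dependence on processing and not variation between mice. No paired analysis was possible because each tissue had 1 library and no test was run. The number of higher members was 7 to 13 in every setting but one, over 4-fold, which left 2 higher beside 9 lower. Over 4-fold, 8.38% of genes with a mean of at least 1 FPKM were higher and 5.03% lower. Over 1.5-fold, 13 members were higher and 11 lower, against 26.1% and 24.0% of those genes. In the settings that kept 2-fold, 11.4% to 19.4% of those genes were higher and 10.8% to 24.6% lower. The number of lower members was 7 to 11, except 5 with a floor of 1 FPKM and 5 among the 39 members with a mean of at least 1 FPKM. The median log2 ratio, 0.02 as reported, was -0.41 with TPM, 0.20 with the T cell scaling, 0.29 among members with a mean of at least 1 FPKM and 0.14 relative to genes of like length. The median of S phase members minus that of mitosis members was -0.31 and came to -0.028 with a floor of 1 FPKM. In the settings that kept 2-fold, Cdc45, Tyms, E2f1, Cks2 and Tpx2 were always called higher, Plk1, Aurka, Aurkb, Kif20a and Kif23 always lower, and 23 of the 26 others always within 2-fold. The remaining 5 higher and 5 lower members lost the call in at least 1 setting, and no called member changed sign. Transcript length and the 3-read minimum were chosen after seeing the data. The causes were not tested.

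Depth limits the low members most, since Aurkb, Kif23, Nusap1 and Cdc25c rest on about 1 estimated read in lung and Bub1 on 2.34 in spleen. With the floor of 0.1 FPKM their log2 ratios were -4.53, -4.79, -3.79, -2.61 and 3.33, in that order. Those are smaller in size than the folds printed for them without the floor.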
